A study of Mus musculus with 8 samples.

Results

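The genes described here are 10 genes of lipid-associated macrophages and of macrophage-lineage cells that fuse: Trem2, Gpnmb, Spp1, Cd9, Lgals3, Fabp5, Dcstamp, Ocstamp, Acp5 and Atp6v0d2. They were chosen by name, with earlier results of these data known, as the rows of the deposited normalized count table that carry these gene symbols. All 10 were found among the 30387 genes of the table. RNA was sequenced from white adipocytes isolated from the epididymal fat pad of mice in 4 groups with 2 libraries each, 8 libraries in all. Wild-type littermates (WT) and Ad-Yap/Taz-KO mice, which carry Adipoq-Cre with floxed Yap (Yap fl/fl) and floxed Taz (Taz fl/fl), were fed a standard diet (SD, named normal chow in the labels) or a high-fat diet (HFD) for 4 weeks, from week 5 of age by the description of the data set, while the methods of the study give a later start. YAP and TAZ are transcriptional co-activators of the Hippo pathway. In the Ad-Yap/Taz-KO mice, Cre recombinase from the adiponectin promoter removes both genes constitutively in adipocytes, so that the deletion is not directed at macrophages, and no group is labelled as carrying Cre without floxed alleles. The study counts 2 mice per group.

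Lipid-associated macrophages gather around dying or overfilled adipocytes in obese fat, where they form crown-like structures, take up lipid and break it down in their lysosomes. Trem2 is a receptor for lipids and lipoproteins on these cells, Cd9 is a tetraspanin of their membrane, Gpnmb is a glycoprotein induced under lysosomal stress, Spp1 encodes the secreted protein osteopontin, Lgals3 encodes galectin-3, which binds damaged lysosomes, and Fabp5 carries fatty acids in the cytosol. Cells of the same lineage can fuse into osteoclasts or into multinucleate giant cells. Dcstamp and Ocstamp encode membrane proteins needed for that fusion, Acp5 encodes the tartrate-resistant acid phosphatase used to stain osteoclasts, and Atp6v0d2 encodes a subunit of the vacuolar proton pump that osteoclasts use. None of these genes is strictly limited to macrophages, and Fabp5, Lgals3 and Acp5 in particular are also transcribed in other cells.

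Promoters are shown for the members whose window around the start site held letters of the AP-1 or PU.1 type, factors that macrophages use. The members shown were called higher in the knockout on both diets, as described further on. So were Cd9 and Lgals3, whose windows held neither and are not shown. A part of these letters in the higher counts was not tested. RefSeq sequence (GRCm38.p6) with 250 bases before and 50 after the start was at hand for 6 of the 10 members, with 9 start sites. The capitals mark TGANTCA, searched as letters of the AP-1 type with N for any base, in Trem2 (chr17:48346151-48346450, + strand) and Gpnmb (chr6:49036268-49036567, + strand), and GAGGAAGT, the letters bound by the macrophage factor PU.1, at start site 1 of Spp1 (chr5:104434861-104435160, + strand).
Trem2: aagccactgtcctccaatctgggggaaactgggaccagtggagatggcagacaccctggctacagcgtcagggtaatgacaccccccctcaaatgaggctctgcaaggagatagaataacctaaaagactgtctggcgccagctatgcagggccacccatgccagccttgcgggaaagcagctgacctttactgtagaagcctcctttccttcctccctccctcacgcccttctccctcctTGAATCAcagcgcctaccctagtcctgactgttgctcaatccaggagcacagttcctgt
Gpnmb: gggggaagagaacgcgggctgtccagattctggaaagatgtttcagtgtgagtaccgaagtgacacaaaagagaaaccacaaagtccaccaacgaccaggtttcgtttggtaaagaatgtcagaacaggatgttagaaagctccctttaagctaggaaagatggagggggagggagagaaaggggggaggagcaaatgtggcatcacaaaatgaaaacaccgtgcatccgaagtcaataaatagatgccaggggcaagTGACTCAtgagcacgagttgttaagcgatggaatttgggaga
Spp1: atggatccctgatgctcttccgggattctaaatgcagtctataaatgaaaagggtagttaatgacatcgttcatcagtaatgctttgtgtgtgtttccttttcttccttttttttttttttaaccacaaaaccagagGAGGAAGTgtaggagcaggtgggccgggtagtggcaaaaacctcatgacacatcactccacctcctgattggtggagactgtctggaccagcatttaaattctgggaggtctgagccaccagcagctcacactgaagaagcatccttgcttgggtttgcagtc
The match lies 9 bases before the start in Trem2, 8 bases after it in Gpnmb and 113 bases before it in Spp1. These are RefSeq starts, and that of Gpnmb lies before the gene start given further on. TGANTCA stood in 2 of the 9 member windows and in 7.81% of all 32851 windows of this length, and GAGGAAGT in 1 of 9 and in 3.2%. TCANGTG, searched as letters of the MITF type, was in 2 of 9 and in 14.3%. The 2 were Lgals3 (TCAGGTG) and start site 3 of Acp5 (CACATGA). Which bases at N these factors bind was not tested. GGAATG, the letters bound by TEAD factors through which YAP and TAZ act, was in 0 of the 9 windows and in 14.7% of all. Both strands were searched, no match of one motif overlapped a match of another, and a match is a run of letters and no evidence that a factor binds there.

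The values are gene counts that the authors scaled by a size factor for each library and then rounded, called normalized counts below. The 8 libraries rest on 14.0 to 22.3 M reads counted on genes, with 1 read worth 0.7953 to 1.135 normalized counts. The 2 WT HFD libraries differed less from each other than the pairs of the other groups did (5.86 times the Poisson variance in genes of 1000 to 5000 reads, against 27.9 to 71.5 times). Results that rest on them were therefore also fitted with these 2 averaged to 1 sample, and calls lost in that way are named or counted below. Of the targeted genes, Wwtr1, which encodes TAZ, had 4743 to 7121 normalized counts in the WT and 1957 to 2707 in the Ad-Yap/Taz-KO libraries, and Yap1 had 2333 to 2776 and 1549 to 2068. By the limma test described below, Wwtr1 was called lower on both diets. Yap1 was called lower on SD but not on HFD (log2 fold change -0.42, adjusted p = 0.0591, limma). The summed counts of 10 adipocyte markers ran from 231974 to 293492 on SD in both genotypes, from 363466 to 364112 in WT on HFD, and were 145352 and 75548 in Ad-Yap/Taz-KO on HFD. The summed counts of 16 general macrophage markers were 7250 and 7114 in WT on SD, 35352 and 20702 in Ad-Yap/Taz-KO on SD, 4072 and 4157 in WT on HFD and 40261 and 37589 in Ad-Yap/Taz-KO on HFD, and 0 of the 16 were at 0 in every library. The largest part of the WT sums on HFD, 1238 and 1291 counts, was Mertk, which was called on neither diet. RNA of a cell type in a bulk sample can fall through fewer cells or through less RNA per cell, which cannot be told apart here.

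Deletion of Yap and Taz in adipocytes went with much higher counts of most of these genes on HFD. The limma test was run on log2(normalized count + 1) of the 18800 genes whose mean reached 5 normalized counts. Called genes are those with an adjusted p (Benjamini-Hochberg) of 0.05 or less whose log2 fold change was 0.59 or more, up or down. By this rule 8 of the 10 members were higher and 1, Acp5, was lower in Ad-Yap/Taz-KO than in WT on HFD, where 17.1% of all genes tested were called higher and 15.1% lower, 32.2% in all. On SD 8 of 10 were higher and 0 lower, against 3.21% and 1.5% of all genes (4.71% together), and the 2 not called were Ocstamp and Acp5. The members were chosen with earlier results of these data known, so the comparison with these shares is a description and not a test. Scaling the libraries to the same total, which moves the median of all genes on HFD from 0.09 to 0.47 and gives 4617 genes higher and 1367 lower in place of 3213 and 2840, left the same number of members called on both diets. The median log2 fold change of the members was 4.45 on HFD and 3.22 on SD, and that of all genes 0.09 and -0.01. With Dcstamp, which was listed at 0 in both WT HFD libraries, at its lower bound, the median on HFD was 4.24. Both libraries of Ad-Yap/Taz-KO were above both of WT in 9 members on HFD and in 9 on SD, where 36.5% and 22.8% of all genes were, and below in 1 (Acp5) and 0, where 33.0% and 22.2% were. The pseudocount of 1 pulls the log2 values of low counts together, and 1 low library can put a fitted log2 fold change above that of the ratio of means, as for Spp1 on SD. In 2 libraries against 2 an exact permutation test of 1 gene cannot give a p below 0.333, so all p-values come from the limma fit across genes.

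**Figure D1:**
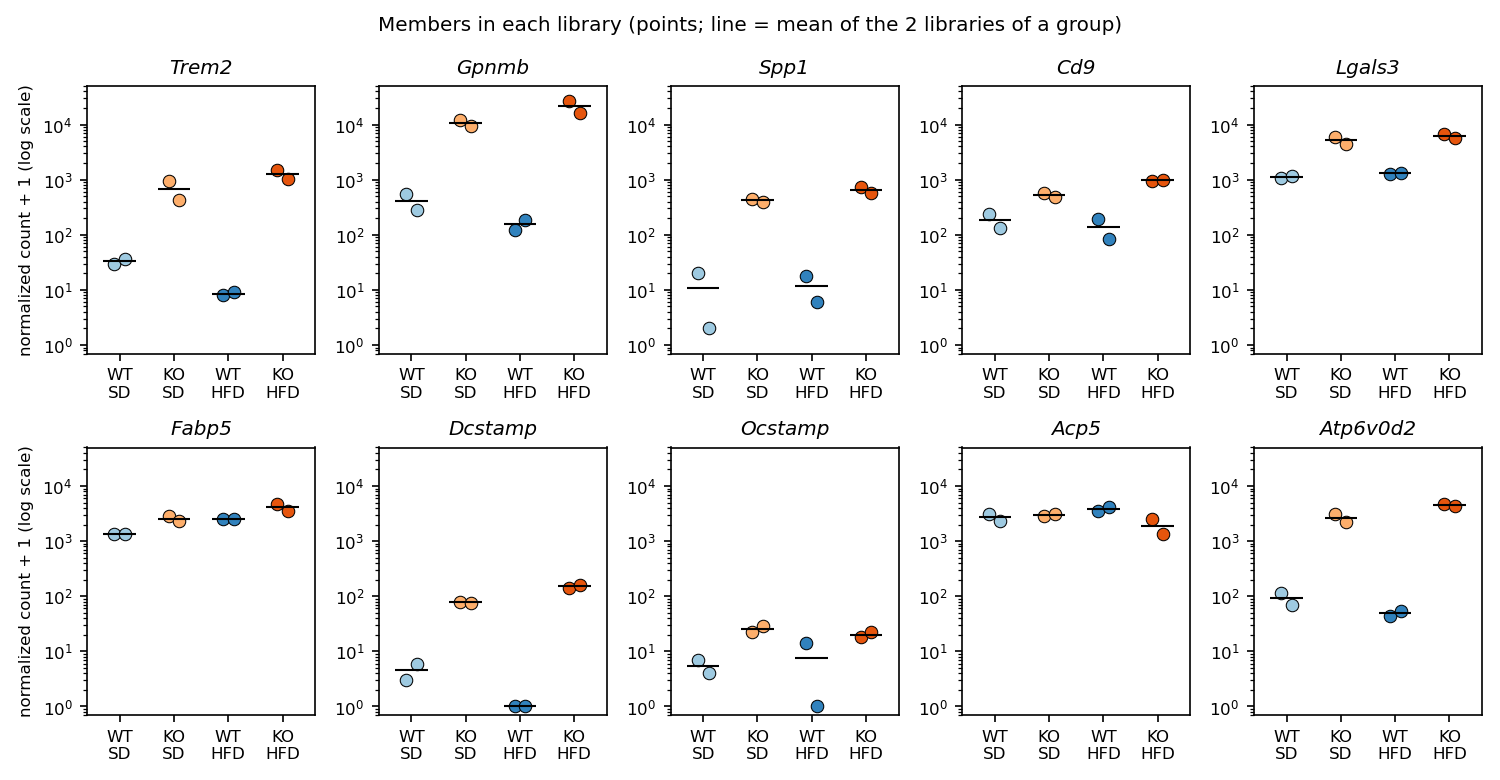
Normalized count plus 1 of each of the 10 members on a log axis, with 1 point per library and a line at the mean of the 2 libraries of a group, for WT and Ad-Yap/Taz-KO (KO) mice on SD and HFD. In 9 members both KO libraries lie above both WT libraries of the same diet on SD and on HFD, while Acp5 lies below on HFD.

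Among the lipid-associated members, Trem2 and Gpnmb had the largest fold changes on HFD. Trem2 (ENSMUSG00000023992, chr17:48346401-48354147, + strand) had 29 and 35 normalized counts in WT on SD, 941 and 418 in Ad-Yap/Taz-KO on SD, 7 and 8 in WT on HFD and 1525 and 1034 in Ad-Yap/Taz-KO on HFD. Its Ad-Yap/Taz-KO libraries were thus all above its WT libraries, and the ratio of means was 21.2 on SD and 171 on HFD, where it rests on WT values of 7 and 8. This was a log2 fold change of 4.26 on SD (standard error 0.39, adjusted p = 3.7e-05, limma) and 7.21 on HFD (standard error 0.39, adjusted p = 8.98e-08).

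Gpnmb (ENSMUSG00000029816, chr6:49036546-49070929, + strand) reached the highest counts of the members, with 541 and 278 in WT on SD, 12032 and 9401 in Ad-Yap/Taz-KO on SD, 121 and 186 in WT on HFD and 27083 and 16118 in Ad-Yap/Taz-KO on HFD. No Ad-Yap/Taz-KO library came near a WT library. Means differed 26.2-fold on SD (log2 fold change 4.77, standard error 0.31, adjusted p = 2.64e-06, limma) and 141-fold on HFD (7.11, standard error 0.31, adjusted p = 2.26e-08).

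Spp1 (ENSMUSG00000029304, chr5:104435118-104441050, + strand) was close to the limit of detection in WT, with 19 and 1 normalized counts on SD and 17 and 5 on HFD, where 3 reads are worth up to 3.41 normalized counts. In Ad-Yap/Taz-KO it had 440 and 396 on SD and 732 and 578 on HFD. It was called on both diets, at a log2 fold change of 6.05 on SD (standard error 0.83, adjusted p = 0.000745, limma) and 5.97 on HFD (standard error 0.83, adjusted p = 0.000164), with the widest standard error of the members called. The log2 fold change on SD was 7.71 without WT SD replicate 1 and 4.39 without WT SD replicate 2, and it was called in both cases. Its adjusted p was 2.6e-05 to 0.0304 over all alternatives run. Of its exon bases, 18.8% are also annotated to Gm42793 on the same strand, and reads over both genes were not counted for either.

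Cd9 and Lgals3 rose by smaller ratios. Cd9 (ENSMUSG00000030342, chr6:125460266-125494791, - strand) had 237 and 131 normalized counts in WT against 576 and 486 in Ad-Yap/Taz-KO on SD, and 190 and 84 against 962 and 974 on HFD. The groups did not overlap on either diet, with a log2 fold change of 1.58 on SD (standard error 0.35, adjusted p = 0.0203, limma) and 2.93 on HFD (standard error 0.35, adjusted p = 5.17e-05). The call on SD was lost without the filter on low values (adjusted p = 0.134), without WT SD replicate 2 (log2 fold change 1.16, adjusted p = 0.275) and without either Ad-Yap/Taz-KO SD library (adjusted p = 0.102 and 0.0589).

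Lgals3 (ENSMUSG00000050335, chr14:47367751-47386160, + strand) had 1082 and 1162 normalized counts in WT against 5847 and 4473 in Ad-Yap/Taz-KO on SD, and 1286 and 1302 against 6706 and 5578 on HFD. WT and Ad-Yap/Taz-KO libraries stood well apart at both diets, and the ratio of means was alike, 4.6 on SD and 4.75 on HFD. Both were called, with log2 fold changes of 2.19 (standard error 0.17, adjusted p = 8.64e-06, limma) and 2.24 (standard error 0.17, adjusted p = 1.01e-06).

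Fabp5 (ENSMUSG00000027533, chr3:10012548-10016607, + strand) changed least of the members called higher. It had 1347 and 1356 normalized counts in WT against 2807 and 2340 in Ad-Yap/Taz-KO on SD, and 2551 and 2562 against 4702 and 3455 on HFD, so that WT on HFD reached the level of Ad-Yap/Taz-KO on SD. It rose by a log2 fold change of 0.92 on SD (standard error 0.17, adjusted p = 0.00651, limma) and 0.66 on HFD (standard error 0.17, adjusted p = 0.0102). Averaging the WT HFD libraries ended the call on HFD (adjusted p = 0.0828), as did leaving out either of them (adjusted p = 0.0757 and 0.0785) or Ad-Yap/Taz-KO HFD replicate 1 (log2 fold change 0.43, adjusted p = 0.0606). On SD it was lost without either WT SD library (adjusted p = 0.0654 and 0.0755).

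Of the 2 fusion genes, Dcstamp was called on both diets and Ocstamp on neither. Dcstamp (ENSMUSG00000022303, chr15:39745932-39760934, + strand) had 2 and 5 normalized counts in WT against 78 and 75 in Ad-Yap/Taz-KO on SD, and was listed at 0 in both WT libraries against 141 and 159 in Ad-Yap/Taz-KO on HFD. Against a floor of 3 reads per library, its mean on HFD was at least 47.2-fold higher in Ad-Yap/Taz-KO. The limma fit gave an adjusted p of 0.00396 on SD and 1.26e-05 on HFD, and its fitted log2 fold change on HFD went from 4.3 with a pseudocount of 8 to 10.55 with 0.1. Dcstamp passed the filter on low values only through its Ad-Yap/Taz-KO libraries, so a difference was built into its being tested.

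Ocstamp (ENSMUSG00000027670, chr2:165393760-165400405, - strand) stayed at 28 normalized counts or fewer in every library. It had 6 and 3 in WT against 21 and 28 in Ad-Yap/Taz-KO on SD, and 13 and 0 in WT against 17 and 21 in Ad-Yap/Taz-KO on HFD. The Ad-Yap/Taz-KO libraries were higher on each diet, but on HFD the higher WT library, at 13, was close to the lower Ad-Yap/Taz-KO library, at 17. Neither difference was called, with log2 fold changes of 2.26 on SD (standard error 1.13, adjusted p = 0.336, limma) and 2.41 on HFD (standard error 1.13, adjusted p = 0.117). Without WT HFD replicate 1, the library with 13, the difference on HFD was called (4.31, adjusted p = 0.0158), and without WT HFD replicate 2, the library at 0, it was 0.51 (adjusted p = 0.739).

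The 2 other osteoclast genes went different ways. Atp6v0d2 (ENSMUSG00000028238, chr4:19876841-19922605, - strand) had 114 and 68 normalized counts in WT against 3169 and 2185 in Ad-Yap/Taz-KO on SD, and 43 and 54 against 4624 and 4428 on HFD. Its groups were far apart on both diets, 29.4-fold in the means on SD (log2 fold change 4.89, standard error 0.26, adjusted p = 6.66e-07, limma) and 93.3-fold on HFD (6.52, standard error 0.26, adjusted p = 1.85e-08), the lowest adjusted p of the members in both comparisons.

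Acp5 (ENSMUSG00000001348, chr9:22126731-22135746, - strand) was the member that did not follow the others. It had 3160 and 2330 normalized counts in WT against 2868 and 3171 in Ad-Yap/Taz-KO on SD, where the groups overlapped (log2 fold change 0.15, standard error 0.25, adjusted p = 0.819, limma). On HFD it had 3526 and 4103 in WT against 2488 and 1323 in Ad-Yap/Taz-KO, a fall of the mean to 0.5 of the WT mean (log2 fold change -1.07, standard error 0.25, adjusted p = 0.00544). The lower of the 2 Ad-Yap/Taz-KO HFD libraries was replicate 2, which also had the lower sum of adipocyte markers, and whether adipocyte RNA has a part in the Acp5 values was not tested. The call on HFD was lost without WT HFD replicate 2 (-0.96, adjusted p = 0.0701), and without Ad-Yap/Taz-KO HFD replicate 2 the log2 fold change was -0.61. A gene on the opposite strand, 6530413G14Rik, shares 6.75% of the exon bases, and it is not stated whether the counting used strand.

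**Figure D2:**
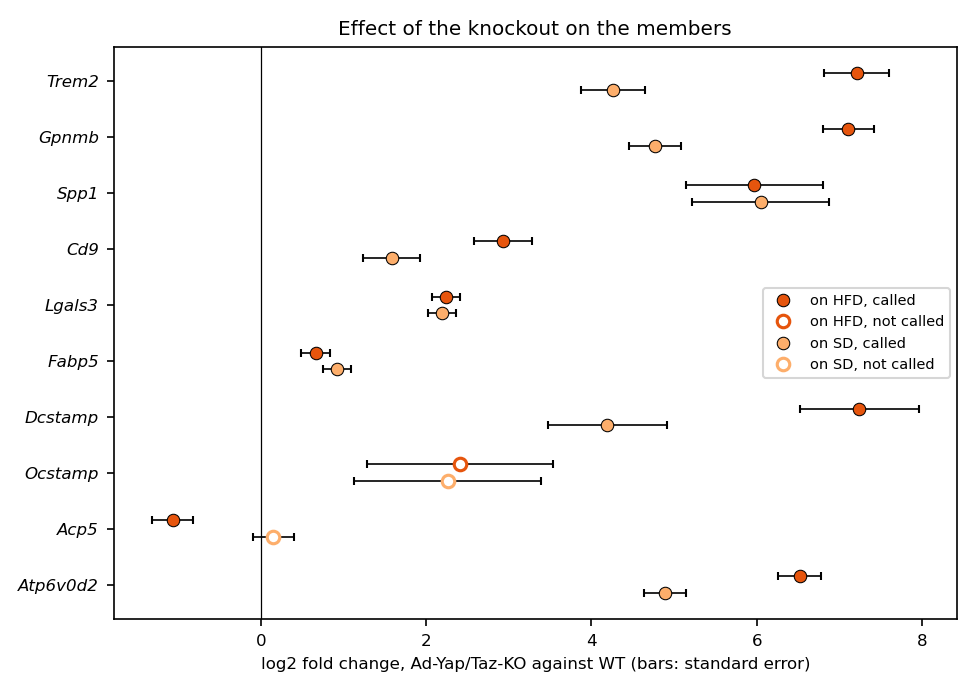
Log2 fold change, Ad-Yap/Taz-KO over WT, for each member on HFD and on SD, with the standard error of the limma fit as a bar; filled points were called and open points were not. The fold changes on HFD of Trem2, Gpnmb and Atp6v0d2 lie between 6.52 and 7.21, that of Dcstamp is a fitted value set by the pseudocount because both WT libraries are at 0, those of Lgals3 are alike on both diets, and Acp5 lies at -1.07 on HFD.

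Diet alone changed 4 of these genes in WT, in different directions. HFD against SD in WT was called lower for 3 members and higher for 1, where 9.22% of all genes were called lower and 8.74% higher (1734 and 1643 genes, or 3567 and 470 under scaling to the same total). Trem2 fell from 29 and 35 to 7 and 8 normalized counts (log2 fold change -1.95, adjusted p = 0.0059, limma), Gpnmb from 541 and 278 to 121 and 186 (-1.36, adjusted p = 0.0115) and Atp6v0d2 from 114 and 68 to 43 and 54 (-0.86, adjusted p = 0.0369). Fabp5 rose from 1347 and 1356 to 2551 and 2562 (0.92, adjusted p = 0.00421). Of the 16 general macrophage markers 13 were also called lower and 0 higher in this comparison, and the part of macrophage RNA in the 3 falls was not tested. In WT both HFD libraries were above both SD libraries in 3 members, Lgals3, Fabp5 and Acp5, and below in 4, Trem2, Gpnmb, Dcstamp and Atp6v0d2, beside 31.4% and 33.6% of all genes. When the 2 WT HFD libraries entered as their average, 0 members were called. Without WT SD replicate 1 only Trem2 was called, since Gpnmb (log2 fold change -0.89, adjusted p = 0.147), Atp6v0d2 (-0.49, adjusted p = 0.298) and Fabp5 (0.91, adjusted p = 0.0569) were not. Trem2 was not called without WT SD replicate 2 (-1.82), where its adjusted p was just above 0.05 before rounding. Without WT HFD replicate 1 the calls of Gpnmb (-1.06, adjusted p = 0.127), Atp6v0d2 (-0.70, adjusted p = 0.21) and Fabp5 (0.92, adjusted p = 0.0506) were lost. Without WT HFD replicate 2 the same held for Atp6v0d2 (-1.02, adjusted p = 0.103) and Fabp5 (0.92, adjusted p = 0.0593). Under scaling to the same total, the rise of Fabp5 was 0.51 and not called.

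No member was called for diet in Ad-Yap/Taz-KO. HFD libraries were both above the SD libraries in 7 of 10 members, where this held for 22.7% of all genes, and both below in 1, Acp5 (19.3% of all genes). Over all genes tested, limma called 0.383% higher and 0.691% lower (1.07% together). Trem2 had a log2 fold change of 1.0 (adjusted p = 0.236), Gpnmb of 0.97 (adjusted p = 0.156), Cd9 of 0.87 (adjusted p = 0.256), Atp6v0d2 of 0.78 (adjusted p = 0.169) and Acp5 of -0.73 (adjusted p = 0.176).

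The difference between the effects of the deletion on the 2 diets was tested as the interaction of genotype and diet. It was called positive for 3 members and negative for 1, against 8.69% and 8.73% of all genes (1633 and 1641 genes, or 2610 and 619 under scaling to the same total). The effect of the deletion was larger on HFD for Trem2 (difference of log2 fold changes 2.95, standard error 0.55, adjusted p = 0.00665, limma), for Gpnmb (2.34, standard error 0.44, adjusted p = 0.00715) and for Atp6v0d2 (1.64, standard error 0.37, adjusted p = 0.0131), and lower for Acp5 (-1.22, standard error 0.35, adjusted p = 0.0328). In the first 3, values on HFD were called lower than on SD in WT and were higher, though not called, in Ad-Yap/Taz-KO. Cd9 (1.35, adjusted p = 0.0779) and Dcstamp (3.04, adjusted p = 0.0577) had positive values that were not called. Cd9 was called under 3 of 20 alternatives, among them scaling to the same total (1.77, adjusted p = 0.0342, limma). Dcstamp was called under 1 of 20, a pseudocount of 0.1 (6.0, adjusted p = 0.0256, limma). For Spp1 (-0.08, standard error 1.17) and Lgals3 (0.05, standard error 0.23) no difference was detectable, with much the wider error for Spp1. Of the 16 general macrophage markers, 14 were called positive and 0 negative, and their part in these values was not tested. The call of Acp5 was lost under 11 of 20 alternative settings and that of Atp6v0d2 under 6. That of Gpnmb was lost under 1, without the filter on low values (adjusted p = 0.0588, limma), while Trem2 kept its call under all 20.

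Each member was also set against the summed counts of the 16 markers in the same library. For 5 members, Trem2, Gpnmb, Spp1, Dcstamp and Atp6v0d2, all 4 Ad-Yap/Taz-KO libraries were above all 4 WT libraries by this measure too. Trem2 was 0.172% to 0.492% of the marker sum in WT and 2.02% to 3.79% in Ad-Yap/Taz-KO. Gpnmb was 2.97% to 7.46% against 34.0% to 67.3%, and Atp6v0d2 0.956% to 1.57% against 8.96% to 11.8%. Spp1 was 0.0141% to 0.417% against 1.24% to 1.91%, and Dcstamp 0 to 0.0703% against 0.221% to 0.423%. The order was the same for these 5 when Mertk was left out of the sum, a setting chosen after seeing the data, with Spp1 closest at 0.0168% to 0.6% in WT and 1.27% to 2.02% in Ad-Yap/Taz-KO. On HFD a single marker could change as much as some of these 5 members. Fcgr1, an Fc receptor, had 4 and 0 normalized counts in WT against 207 and 212 in Ad-Yap/Taz-KO on HFD (log2 fold change 6.56, adjusted p = 3.07e-05, limma). It was the highest of the 16 markers and lay below Trem2, Gpnmb and Dcstamp. On SD Fcgr1 was not called (2.54, adjusted p = 0.0768). The highest log2 fold change of the 16 markers on SD was 3.04, against 4.19 to 6.05 for the 5 members.

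The other members did not. Lgals3 was 14.9% to 31.6% of the marker sum in WT and 14.8% to 21.6% in Ad-Yap/Taz-KO, and Cd9 was 1.84% to 4.67% and 1.63% to 2.59%, so that the ranges of these 2 overlapped, as did those of Ocstamp. Fabp5 (18.6% to 62.6% in WT, 7.94% to 11.7% in Ad-Yap/Taz-KO) and Acp5 (32.8% to 98.7% and 3.52% to 15.3%) were lower relative to the markers in all Ad-Yap/Taz-KO libraries. These ratios are descriptions with no test, and they do not show in which cells a transcript was made.

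**Figure D3:**
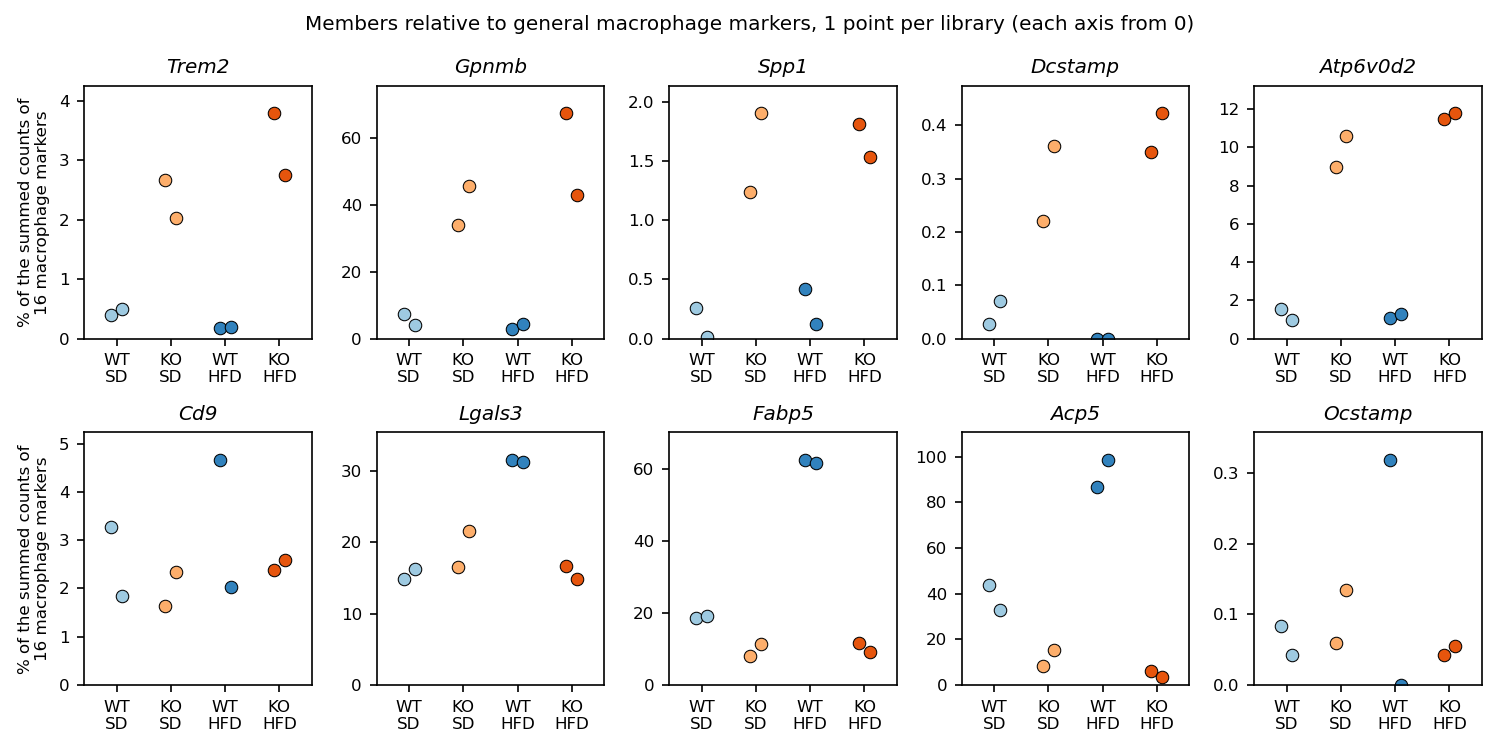
Normalized count of each member as a percentage of the summed normalized counts of 16 general macrophage markers, 1 point per library, each vertical axis starting at 0. The upper row holds the 5 members whose 4 KO libraries lie above all 4 WT libraries, such as Atp6v0d2 at 8.96% to 11.8% against 0.956% to 1.57%; in the lower row Fabp5 and Acp5 lie below and the others overlap.

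Levels can be set against each other once divided by the exon length of each gene. In WT on SD the order, in normalized counts per kilobase, was Acp5 (1350), Lgals3 (604), Fabp5 (379), Cd9 (90.0), Gpnmb (62.9), Atp6v0d2 (33.5), Trem2 (6.47), Spp1 (6.07), Dcstamp (1.31) and Ocstamp (1.23), where the libraries of Cd9 and Gpnmb, and of the last 4 genes from each to the next, overlapped. In Ad-Yap/Taz-KO on HFD it began with Gpnmb (3320) and Lgals3 (3310), which overlapped, followed by Atp6v0d2 (1670), Fabp5 (1140) and Acp5 (939), the last 2 overlapping, and then Cd9 (474), Spp1 (397), Trem2 (259), Dcstamp (56.3) and Ocstamp (5.2). Gpnmb moved from place 5 to place 1 and Acp5 from place 1 to place 5, with the union of exons as the length. With the longest transcript of each gene as the length, Acp5 would stand just above Fabp5 in Ad-Yap/Taz-KO on HFD. Ad-Yap/Taz-KO on SD lay between, with Lgals3 (2780), Gpnmb (1650) and Acp5 (1490) leading and the last 2 overlapping, and WT on HFD kept Acp5 (1880), Fabp5 (717) and Lgals3 (696) in front, each separate from the next.

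Other genes of the same programmes were taken from lists of textbook genes, also chosen with earlier results of these data known. Of 19 other lipid-associated macrophage genes 10 were called higher and 2 lower on HFD, and 11 higher and 0 lower on SD, with median log2 fold changes of 0.71 and 1.08. Over all genes tested, 17.1% were called higher and 15.1% lower on HFD, and 3.21% and 1.5% on SD. The 6 most abundant of them, Lpl, Fabp4, Cd36, Ctsb, Apoe and Abca1, are also genes of adipocytes or of many cells. Lpl, the lipoprotein lipase that adipocytes secrete, had 91120 and 91503 normalized counts in WT against 88692 and 116780 in Ad-Yap/Taz-KO on SD (log2 fold change 0.16, adjusted p = 0.837, limma), and 158090 and 157157 against 96940 and 55035 on HFD, where it was called lower (-1.11, adjusted p = 0.00913). Ctsb, a lysosomal protease, had 11895 and 12557 against 28949 and 26108 on SD, where it was called higher (1.17, adjusted p = 0.00176, limma), and 24143 and 24328 against 38201 and 28844 on HFD, where it was not called (0.45, adjusted p = 0.0677). The other 4 were called on neither diet. Fabp4, a fatty acid carrier of adipocytes and macrophages, had log2 fold changes of 0.081 on SD and -0.32 on HFD (adjusted p = 0.925 and 0.409, limma). The fatty acid receptor Cd36 had 0.36 and -0.28 (adjusted p = 0.376 and 0.277, limma), Apoe, an apolipoprotein, had -0.50 and -0.51 (adjusted p = 0.266 and 0.0927) and the cholesterol exporter Abca1 had 0.11 and -0.14 (adjusted p = 0.801 and 0.544). Tyrobp, the adaptor through which Trem2 signals, had 63 and 28 in WT against 481 and 298 in Ad-Yap/Taz-KO on SD, and 20 and 12 against 788 and 568 on HFD (log2 fold changes 3.14 and 5.34, adjusted p = 0.000721 and 1.85e-06, limma). The receptor and its adaptor therefore rose together on both diets.

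Of 25 other osteoclast and cell fusion genes 22 were tested, with 16 called higher and 0 lower on HFD and 11 higher and 0 lower on SD. The shares of all genes called higher were 17.1% on HFD and 3.21% on SD. Median log2 fold changes of the list were 2.46 and 1.07, which stay the same when genes at 0 in both WT libraries enter at their lower bound. Tnfrsf11a, the receptor RANK that starts osteoclast formation, had 168 and 104 normalized counts in WT against 596 and 375 in Ad-Yap/Taz-KO on SD, and 55 and 84 against 938 and 848 on HFD (log2 fold changes 1.83 and 3.69, adjusted p = 0.00357 and 2.9e-06, limma). Ctsk, the collagen-degrading protease of osteoclasts, had 268 and 320 against 1192 and 606 on SD, and 279 and 288 against 3369 and 2191 on HFD (1.53 and 3.26, adjusted p = 0.00692 and 4.07e-06). Nfatc1, the transcription factor that drives osteoclast genes, was not called on either diet, with 1232 and 1539 against 1270 and 911 on SD and 1496 and 1423 against 1222 and 1528 on HFD (-0.36 and -0.09, adjusted p = 0.388 and 0.741). Mmp9, a secreted protease of osteoclasts and neutrophils, had 88 and 52 against 120 and 55 on SD and 6 and 8 against 7 and 18 on HFD, and was not called for genotype (adjusted p = 0.888 and 0.485). Of the most abundant genes of this list, Cd44, a hyaluronan receptor that macrophages use in fusion, had 910 and 940 in WT against 5956 and 4025 in Ad-Yap/Taz-KO on SD, and 868 and 937 against 9286 and 8569 on HFD (2.40 and 3.30, adjusted p = 7.82e-06 and 9.53e-08, limma). Sirpa, which binds Cd47, had 519 and 738 against 3207 and 2147 on SD, and 1167 and 915 against 5468 and 4038 on HFD (2.08 and 2.18, adjusted p = 0.000196 and 2.29e-05, limma). Its ligand Cd47 was called on neither diet, with 1821 and 1927 against 2127 and 1837 on SD and 2677 and 2465 against 2312 and 2422 on HFD (0.078 and -0.12, adjusted p = 0.844 and 0.565, limma). The other 3 of the 6 most abundant were not called on SD. Csf1, the growth factor of macrophages, had 3937 and 4493 against 3513 and 1856 on SD (-0.72, adjusted p = 0.127, limma) and 2238 and 2219 against 3575 and 4404 on HFD, where it was called higher (0.83, adjusted p = 0.0171). Il4ra, a subunit of the interleukin-4 receptor, had 4708 and 2866 against 4363 and 3119 on SD (0.0061, adjusted p = 0.994, limma) and 1771 and 1665 against 3255 and 4526 on HFD, where it was called higher (1.16, adjusted p = 0.00262). Sbno2 had 11125 and 8244 against 9053 and 9076 on SD (-0.079, adjusted p = 0.865, limma) and 5009 and 5022 against 6420 and 7676 on HFD (0.48, adjusted p = 0.0427), which was under the fold limit. Tfec and Siglec15, singled out after their values were seen, passed the filter on low values only through their Ad-Yap/Taz-KO libraries, as Dcstamp did. Tfec, with 2, 11, 0 and 0 in the WT libraries, was called on both diets, and Siglec15, listed at 0 in all of them, on HFD.

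Among the general macrophage markers, 14 of 16 were called higher on HFD and 12 on SD, with 0 lower, and median log2 fold changes of 3.93 and 1.96. Of all genes tested, 17.1% were called higher and 15.1% lower on HFD, and 3.21% and 1.5% on SD. Adgre1, which encodes F4/80, had 150 and 152 normalized counts in WT against 1699 and 922 in Ad-Yap/Taz-KO on SD, and 73 and 90 against 3314 and 3178 on HFD. Cd68, a protein of macrophage lysosomes, had 480 and 334 against 1928 and 1425 on SD, and 143 and 201 against 3183 and 3020 on HFD. Csf1r, the receptor for Csf1, had 655 and 583 against 2869 and 1541 on SD and 287 and 284 against 3461 and 3441 on HFD. It was called higher on both diets. So were Lyz2, which encodes lysozyme (log2 fold changes 2.75 and 4.07, adjusted p = 3.6e-05 and 2.48e-07, limma), the mannose receptor Mrc1 (1.18 and 2.57, adjusted p = 0.0021 and 8.64e-07) and the integrin Itgam (2.47 and 4.39, adjusted p = 0.00195 and 4.12e-06). All 10 adipocyte markers were called lower on HFD and 0 on SD, and 8 of the 10 members were called higher on both diets. Of the other cell types, 5 of 8 fibroblast and progenitor markers, 2 of 8 endothelial markers, 2 of 5 lymphocyte markers tested, 1 of 7 mesothelial markers, 1 of 3 neutrophil markers tested and 0 of 6 dendritic cell markers were called higher on HFD, with 1 mesothelial marker lower. The endothelial and mesothelial counts lie near the 17.1% of all genes called higher on HFD. The neutrophil markers summed to 12 to 92 normalized counts per library and the lymphocyte markers to 41 to 296. The part of these cells in the members' values was not tested.

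**Figure D4:**
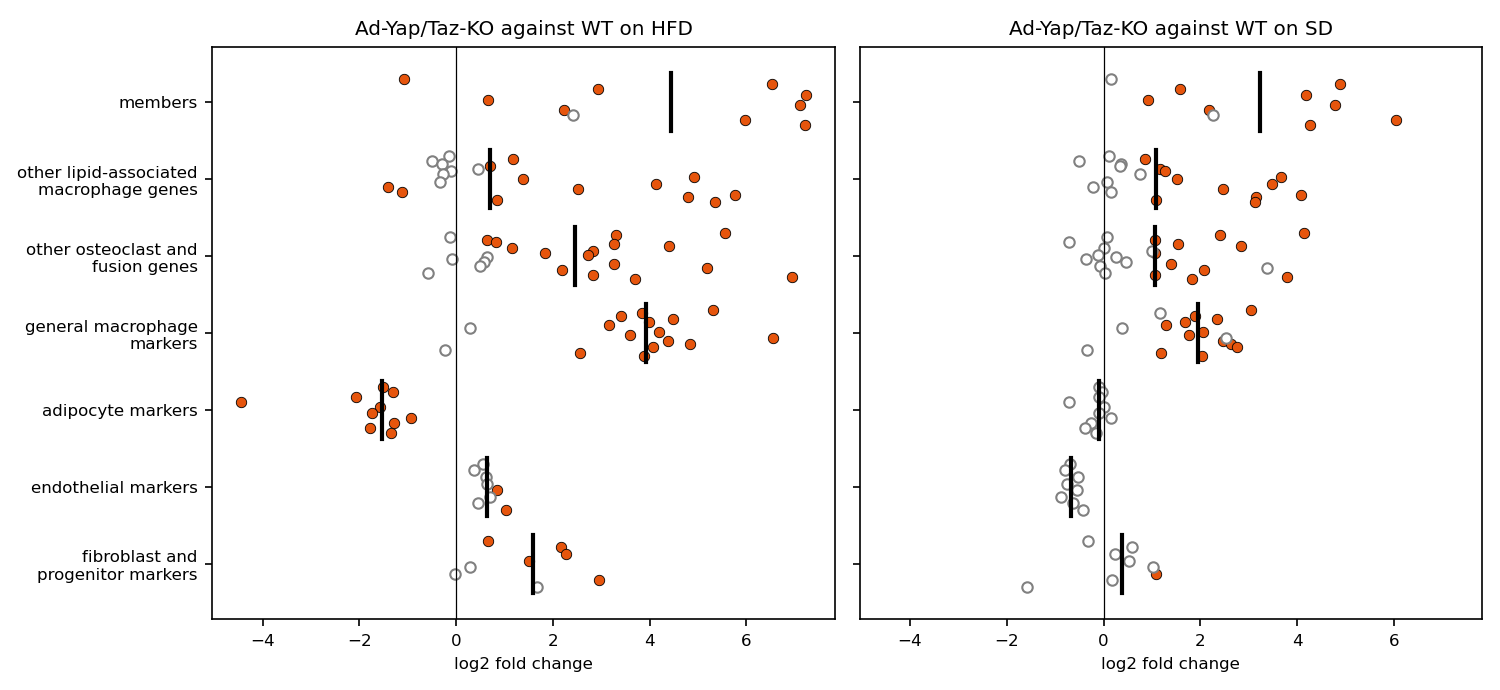
Log2 fold change, Ad-Yap/Taz-KO over WT, on HFD (left) and SD (right), 1 point per gene tested, filled where called, with a bar at the median of each list. The median of the members is 4.45 on HFD and 3.22 on SD, beside 3.93 and 1.96 for general macrophage markers. All 10 adipocyte markers were called lower on HFD and 0 on SD, where 15.1% and 1.5% of all genes were.

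Outside these lists, the genes whose values most resembled the mean of the members over the 8 libraries, among 12003 genes, were Il7r (Pearson r = 0.994), Csf2ra (0.99), Clec7a (0.989), Dhrs9 (0.989) and 4933423P22Rik (0.988). Il7r encodes a cytokine receptor subunit, Csf2ra the alpha subunit of the GM-CSF receptor, and Clec7a the beta-glucan receptor Dectin-1 of myeloid cells. Il7r had 10 and 3 normalized counts in WT against 489 and 249 in Ad-Yap/Taz-KO on SD, and 6 and 4 against 737 and 576 on HFD. The libraries fall into 2 clusters by genotype, so these correlations describe the distance between the clusters to a large part, and they say nothing of shared function.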

How the data were processed

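RNA-seq of isolated mouse epididymal white adipocytes was analysed from 1 table with 8 libraries. The authors removed ribosomal RNA, used Reaper for trimming, mapped the reads to GRCm38 with STAR 2.5.2b, counted them on exons with featureCounts 1.5.1 and tested with DESeq2 1.14.1. The deposited values are a score: gene counts that the authors scaled by a size factor for each library and then rounded, so no count model was run here. The strand setting of the counting was not given in the sources used here. The value of 1 read was estimated from the spacing of low values, and a value of 0 allows up to 3 reads, for counting error only.

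limma 3.58.1 (R 4.3.3; lmFit, contrasts.fit, eBayes with trend) was fitted to log2(value + 1) of 18800 of 30387 genes (mean of at least 5), with 4 group means in 1 fit, 4 residual and 8.59 prior degrees of freedom, and Benjamini-Hochberg adjustment over all genes tested. Groups and replicate numbers came from the labels. The fit was tested on simulated data. The members, the gene lists and the tests were chosen with earlier results of these data known. Named from the lists were the 6 genes of highest mean in the 2 programme lists, 5 known partners of the members, 6 general macrophage markers, and the 5 genes outside all lists most correlated with the members' mean z-score. For the other cell types counts and sums are given in place of the 2 genes of highest mean that the rule also named. Exon lengths and overlaps came from GENCODE vM21. Alternatives were other pseudocounts, filters, scalings, limits, robust eBayes, a fit restricted to the groups of a comparison, a block for the replicate number, the WT HFD libraries averaged and each library left out, and, chosen after seeing the data, the marker sum without Mertk. Tables and figures used Python 3.11.15, numpy 2.4.6, pandas 2.3.3 and matplotlib 3.10.9.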

Additional observations from a re-analysis of the deposited data

Results flagged for a closer look

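The effect of the deletion differed between the 2 diets, by a test of the interaction itself, for 4 members. The same test called 17.4% of all genes, and 14 of the 16 general macrophage markers. The difference between the log2 fold change on HFD and on SD was 2.95 for Trem2, 2.34 for Gpnmb, 1.64 for Atp6v0d2 and -1.22 for Acp5 (adjusted p = 0.00665, 0.00715, 0.0131 and 0.0328, limma). When the WT HFD libraries entered as their average, 2 of these 4 calls were left. The call of Acp5 was lost under 11 of 20 alternative settings, that of Atp6v0d2 under 6 and that of Gpnmb under 1. No other member was called.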

How the results depend on the processing

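The members called numbered 9 for the deletion on HFD (7 to 9 over the 21 alternatives) and 8 on SD (6 to 8), and the 7 members Trem2, Gpnmb, Spp1, Lgals3, Dcstamp, Atp6v0d2 and, on HFD, Cd9 kept their calls under every alternative run. Precision is limited by 2 libraries per group, and in WT by low counts for Spp1, Dcstamp, Ocstamp and, on HFD, Trem2. For HFD against SD in WT (4 members called) the number was 2 without the filter on low values, 2 in a fit of only these 2 groups, 1 at stricter limits (adjusted p up to 0.01, log2 fold change from 1 up), 0 with the WT HFD libraries averaged, and 1 to 4 with each library left out. In Ad-Yap/Taz-KO (0 called) leaving out each library gave 0 to 1 (Fabp5 without SD replicate 1, Acp5 without HFD replicate 1). For the interaction (4 called) it was 1 without the filter, 2 at the stricter limits, 2 with the WT HFD libraries averaged, and 2 to 4 with each library left out (2 without WT SD replicate 1 or Ad-Yap/Taz-KO SD replicate 2).

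Some values that were not called changed sign, and the cause was not tested. In WT, HFD against SD turned to -0.21 for Lgals3 under scaling to the same total, to 0.063 for Ocstamp with a pseudocount of 8 and to 0.50 with the WT HFD libraries averaged. With each library left out it ran from -0.94 to 2.38 for Spp1, -1.06 to 0.11 for Cd9 and -2.4 to 1.4 for Ocstamp, and the deletion effect on SD ran from -0.067 to 0.37 for Acp5. The interaction became 0.42 for Spp1 and -0.33 for Ocstamp with a pseudocount of 8, 0.29 for Spp1 and 0.16 for Fabp5 with the same total, 0.094 for Fabp5 and -0.27 for Ocstamp with quantile normalization, and -0.85 for Ocstamp with the WT HFD libraries averaged. With each library left out it ran from -1.74 to 1.58 for Spp1, -0.14 to 0.24 for Lgals3 and -1.75 to 2.06 for Ocstamp.

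Replicate numbers did not pair the samples: deviations of libraries with the same number correlated at -0.3 to 0.108 over 12093 genes. With the replicate number as a block the members called were 9 on HFD, 8 on SD, 4 in WT, 0 in Ad-Yap/Taz-KO and 5 for the interaction, where Cd9 was added (1.35, adjusted p = 0.0491), and the count over all genes for HFD against SD in Ad-Yap/Taz-KO went from 202 to 112. Over all genes, the calls for that comparison ranged from 0 in a fit of only the 2 groups, 3 without the filter and 28 with the WT HFD libraries averaged to 330 with a pseudocount of 8, 961 without Ad-Yap/Taz-KO SD replicate 1 and 739 without HFD replicate 1 of that genotype. With the WT HFD libraries averaged they were 3445 in place of 6053 for the deletion on HFD, 539 in place of 3377 for diet in WT and 517 in place of 3274 for the interaction, and without the filter 438 in place of 886 for the deletion on SD, 1701 for diet in WT and 721 for the interaction. Leaving out single libraries gave as few as 381 (without WT SD replicate 2) and 494 (without WT SD replicate 1) for the deletion on SD, and 3629 (without WT HFD replicate 2) and 3682 (without Ad-Yap/Taz-KO HFD replicate 2) for the deletion on HFD. For diet in WT it gave 628 and 1400 without WT SD replicate 1 and 2, 1050 and 787 without WT HFD replicate 1 and 2. For the interaction it gave 530, 1599, 1021 and 757 without these same libraries, 1405 and 1411 without replicate 2 of Ad-Yap/Taz-KO on SD and on HFD, and for diet in Ad-Yap/Taz-KO as few as 14 (without SD replicate 2 of that genotype).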

Other observations

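A pair of annotated genes that overlap members were listed at 0 in all 4 WT libraries and above 0 in all 4 Ad-Yap/Taz-KO libraries. Gm42793, on the strand of Spp1, had, in Ad-Yap/Taz-KO, 15 and 21 normalized counts on SD and 13 and 19 on HFD. Gm26728, on the strand opposite to Cd9, had 8 and 7 on SD and 4 and 4 on HFD. A value of 0 allows up to 3 reads, and reads that overlap several genes were left out by the authors.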
